A study of Mus musculus with 24 samples.

Results

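The cytosolic ribosomal protein genes were taken from the count table by symbol. Every protein-coding gene named Rpl or Rps with the number or letter of its subunit protein was a member, together with Rpsa and the stalk genes Rplp0, Rplp1 and Rplp2. Rpl22, which carries the tag of the mouse line, the Rps6k kinases and pseudogenes were left out. This gave 82 of the 21965 genes in the table, 50 of the large subunit and 32 of the small subunit. A sum of at least 10 counts over all libraries was reached by 81 of them, and by 17167 genes in all. Rpl10l, a testis paralog of Rpl10, had no count in any library, which does not exclude a level too low to be counted. A mean of at least 100 counts per library was reached by 79 members.

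The ribosome of the cytosol is built from ribosomal RNA and these proteins in equal proportion, so that cells tend to make the proteins in matched amounts. Their mRNAs carry a 5′ terminal oligopyrimidine (TOP) motif, a C at the first base followed by a run of C and T. Through this motif the kinase mTOR, acting on the binding protein LARP1, sets how many ribosomes are loaded onto the mRNA. Oligodendrocytes (OL), the myelin-forming cells of the spinal cord, translate large amounts of myelin protein and lipid enzymes and need ribosomes in both the cell body and the myelin processes.

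The animals were OL-Ribotag mice (genotype plp-cre;rpl22HA), in which Cre fused to a tamoxifen-responsive receptor is driven by Plp and switches Rpl22 to a form with a hemagglutinin (HA) tag. All groups carried both alleles and received tamoxifen. Plp is also active in Schwann cells. Groups were naive female mice and female mice at day post-injury (dpi) 2, 10 or 42 after a T9 contusion of 50 kdyn. The naive mice were uninjured, and the study describes no sham surgery for them. Their tissue was collected on the same day as that of dpi 42. By the study's schedule, dpi 2 and dpi 10 mice were younger at collection and nearer to tamoxifen than naive mice. For these days, injury cannot be told apart from age and time since tamoxifen. The labels give 10 to 12 weeks as the age at injury and the study's methods an age that differs. Each of 3 pools of 2 mice per group gave a library of total spinal cord RNA, taken from the lysate, and a library of the RNA held on HA-tagged ribosomes, called OL here. Levels are given in CPM, counts relative to library size after TMM scaling, which sets most genes equal between libraries. q is the p-value of edgeR's quasi-likelihood test adjusted by Benjamini-Hochberg over the 17167 genes, and a gene was called higher or lower where q was under 0.05.

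Libraries held 25840127 to 32987841 counts on genes. The labels of 2 dpi 42 libraries (1 OL, 1 total RNA) conflict, and they were grouped by their description. Both libraries of dpi 2 pool 2 held counts of 4 Y-linked genes (2604 in total RNA and 2414 in OL, against 0 to 13 in each other library), which goes against a pool of females only. All 10 OL markers, Mbp among them, exceeded total RNA in the OL libraries of each of the 4 groups, and all 10 neuron and all 10 microglia and macrophage markers were lower. The 8 astrocyte markers differed between OL libraries: they summed to 2474, 2250 and 12370 CPM in naive and to 14780, 12880 and 2869 CPM in dpi 42 OL libraries, against 6947 to 8161 and 8480 to 9492 CPM in total RNA, and to 2542 to 9726 CPM in dpi 2 and 2867 to 7654 CPM in dpi 10 OL libraries. Schwann cell markers were present in OL. The 7 genes of the list summed to 680 to 1250 CPM in naive and 968 to 1551 CPM in dpi 2 libraries. The sum was 1843 to 2724 CPM in dpi 10 and 1983 to 2315 CPM in dpi 42 libraries. Gdnf, one of the 7, was at 0 in naive and dpi 42 OL libraries and had counts in the dpi 2 and dpi 10 OL groups.

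The start sites are shown for the members on which the results turn, since the start of the mRNA holds the TOP motif. RefSeq gives promoter windows (GRCm38.p6, 250 bases before to 50 after the start) for 62 of the 82 members. Each line below gives the 15 bases before and the 15 from the annotated start onwards, 5′ to 3′ on the strand of the gene, and capitals mark the longest unbroken run of C and T that overlaps the 10 bases on either side of the start.
Rps18 (chr17:33955651-33955680, minus strand): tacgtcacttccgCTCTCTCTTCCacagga
Rpl38 (chr11:114668565-114668594, plus strand): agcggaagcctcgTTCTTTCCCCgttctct
Rps10 (chr17:27635230-27635259, minus strand): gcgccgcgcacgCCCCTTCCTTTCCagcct
Rps6 (chr4:86857353-86857382, minus strand): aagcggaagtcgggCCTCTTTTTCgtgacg
Rplp2 (chr7:141447636-141447665, plus strand): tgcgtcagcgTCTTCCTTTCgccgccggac
Rps15a (chr7:118116133-118116162, minus strand): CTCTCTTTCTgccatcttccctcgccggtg
Rps19 (chr7:24884898-24884927, plus strand): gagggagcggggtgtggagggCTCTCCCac
Rps28 (chr17:33824548-33824577, minus strand): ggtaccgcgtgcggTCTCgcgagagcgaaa
Rplp0 (chr5:115559452-115559481, plus strand): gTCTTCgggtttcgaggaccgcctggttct
Rps4x (chrX:102189377-102189406, minus strand): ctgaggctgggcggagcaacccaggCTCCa
Rpl10 (chrX:74270801-74270830, plus strand): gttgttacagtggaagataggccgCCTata
Rpl22l1 (chr3:28805493-28805522, plus strand): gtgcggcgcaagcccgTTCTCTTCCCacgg
Rpl7l1 (chr17:46782642-46782671, minus strand): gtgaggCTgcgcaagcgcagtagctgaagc

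The first 5 of these have a run of at least 10 bases across the annotated start. Rps19, Rps28, Rplp0, Rps4x, Rpl10 and Rpl7l1 have none of that length near it. Rps15a and Rpl22l1 have a run of 10 bases beside the start and not across it. Over the 62 members the run had a median length of 7 bases, and 29 members (46.8%) had a run of at least 8 bases. The median over the 27025 genes of the RefSeq table was 5 bases, and 16.1% reached 8. The start base was C in 33.9% of the members and in 16.7% of all genes. The longest run, 21 bases, was that of Rpl7a. Annotated starts need not be the bases used in this tissue, and a run is a description of these letters.

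In the 300-base windows, read on both strands, the letters CCGGAAG (the core of an ETS factor site) stood in 41.9% of the members and in 9.93% of all genes. The word CTTTCC, which can be part of the pyrimidine run itself, stood in 51.6% against 29.3%. AAGATGGC, a YY1-type word, was in 8.06% of the members and 3.19% of all genes, and the TATA box word TATAAA in 9.68% against 15.7%.

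Rpl22, the tagged gene, was measured first. In naive OL libraries its level was 91.3, 97.9 and 88.5 CPM, and in naive total RNA 91.3, 86.6 and 84.8 CPM, so that the groups overlapped and Rpl22 was not called OL enriched (log2 fold change 0.08, SE 0.10, q = 0.50). On dpi 2 the OL libraries held 166, 189 and 172 CPM, all above the naive ones (log2 0.93, SE 0.10, q = 1.74e-07). The counts do not separate tagged from untagged Rpl22 mRNA.

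The question put first was how the members changed in the OL libraries after SCI. Their summed level was 7172 ± 255 CPM in naive OL libraries (SD, n = 3), 17894 ± 954 CPM on dpi 2, 8578 ± 239 CPM on dpi 10 and 11525 ± 361 CPM on dpi 42. The dpi 2 libraries lay far above all others, those of dpi 42 between, and those of dpi 10 a little above the naive ones, with no overlap between any of the 4 groups. As a share of the counts of a library, the members took 0.531% to 0.567% in naive OL and 1.45% to 1.66% in dpi 2 OL libraries. These are bulk libraries, in which fewer cells of a type and less RNA per cell cannot be told apart. The study proposed that some mRNAs in OL libraries come from other cells, microglia and macrophages among them, and filtered for it. That filter was not applied to the OL changes given here, and the part of such mRNAs in them was not tested.

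**Figure D1:**
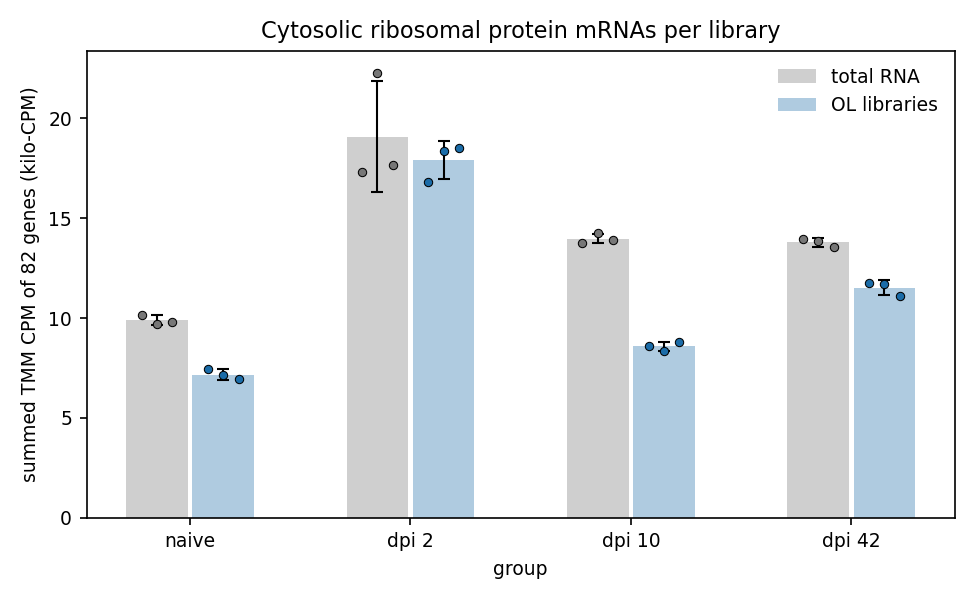
Summed TMM-scaled CPM of the 82 ribosomal protein genes (y axis, in kilo-CPM) in naive, dpi 2, dpi 10 and dpi 42 tissue for total RNA (grey) and OL libraries (blue). Points are the 3 libraries of a group, bars their mean and error bars the SD. The dpi 2 OL mean of 17894 CPM stands above the naive OL mean of 7172 CPM, and total RNA lies above OL in the naive, dpi 10 and dpi 42 groups.

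On dpi 2, 79 of 81 members were higher in OL (18.4% of all genes were) and 0 were lower (20% of all genes were). The 2 others were Rpl3l and Rpl39l, which had 0 counts in all naive and dpi 2 OL libraries. The median over the members was a log2 fold change of 1.40, or 2.65-fold, where the median over all genes was 0.00. In each of the 79 the 3 dpi 2 libraries lay above the 3 naive ones (18.3% of all genes had this). Of the 79, 69 changed by more than 1 on the log2 scale, and the share of all genes past that cut was not counted. Large subunit members had a median of 1.30 and small subunit members 1.5.

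Rps18, a protein of the small subunit head, rose most among members with at least 100 counts per library. It stood at 35, 32.2 and 31.3 CPM in naive OL and at 122, 126 and 141 CPM on dpi 2 (3.95-fold, log2 1.98, SE 0.14, q = 9.88e-10). The naive libraries lay close together and far below all dpi 2 libraries. Rpl41, the shortest protein of the ribosome, rose from 54.5, 52.5 and 53.4 CPM to 189, 243 and 201 CPM (log2 1.98, SE 0.14, q = 7.03e-10). Rps19, mutated in Diamond-Blackfan anemia, went from 16.9, 16.8 and 16.4 CPM to 62.1, 61.7 and 71.7 CPM (log2 1.96, SE 0.15, q = 2.65e-09).

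At the other end were members that rose by less than 1 on the log2 scale. Rpl7l1, a paralog of Rpl7 that acts in ribosome assembly, had 39.8, 40.7 and 42.1 CPM in naive OL and 64.3, 54.1 and 59.8 CPM on dpi 2 (log2 0.54, SE 0.09, q = 0.000105). Rpl3, which lies near the peptidyl transferase centre, had a log2 change of 0.68 (SE 0.07, q = 2.44e-07). Rpl4, a wall of the exit tunnel, had 0.71 (SE 0.08, q = 2.63e-07). Both still lay above every naive library.

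By dpi 10 most of the increase was gone. The OL dpi 10 libraries had 79 members lower than on dpi 2 (10.6% of all genes were) and 0 higher (11.7% of all genes were), with a median of -1.14. Rpl38, which takes part in translation of Hox mRNAs, fell by 1.83 on the log2 scale (SE 0.13, q = 5.4e-09), from 106, 133 and 127 CPM to 36.7, 33.6 and 32.4 CPM. Against naive tissue, 39 members were still higher on dpi 10 (9.62% of all genes were) and 0 were lower (8.59% of all genes were), with a median of 0.31. Their sizes were small, since 0 of them passed 1 on the log2 scale. The highest were Rps19 at 0.66 (SE 0.15, q = 0.00309), Rps28 at 0.66 (SE 0.14, q = 0.00197) and Rps23 at 0.64 (q = 0.000505), the last a protein of the decoding centre.

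On dpi 42 the members stood higher again. Of 81, 76 were higher than in naive OL (16.2% of all genes were) and 0 were lower (16.9% of all genes were), with a median of 0.79, or 1.72-fold. Without the naive OL library with the high astrocyte sum, replicate 3, 73 were higher, and without dpi 42 OL replicate 1 or 2, the dpi 42 libraries with high sums, 73 and 71 were. Against dpi 10, 58 were higher (3.28% of all genes were) and 0 lower (3.90% of all genes were), with a median of 0.45. That count was 23 to 29 without any of dpi 10 OL replicates 1 and 2 or dpi 42 OL replicates 1 and 2, and 11 in the fit with an offset described below. Rps28, a small protein near the mRNA exit, had 20.6, 32.3 and 26.4 CPM in naive OL and 59.9, 60.6 and 71.4 CPM on dpi 42 (log2 1.28, SE 0.14, q = 1.13e-06), so that the lowest dpi 42 library was well above the highest naive one. Rpl36a, an X-linked member, followed at 1.21 (SE 0.13, q = 1.09e-06). The 5 members not called were Rpl22l1, Rpl29, Rpl39l, Rpl4 and Rpl7l1. One of the 76 called, Rpl3l, rests on 12, 17 and 0 counts against 0 in all naive OL libraries, and no fold is given for it.

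**Figure D2:**
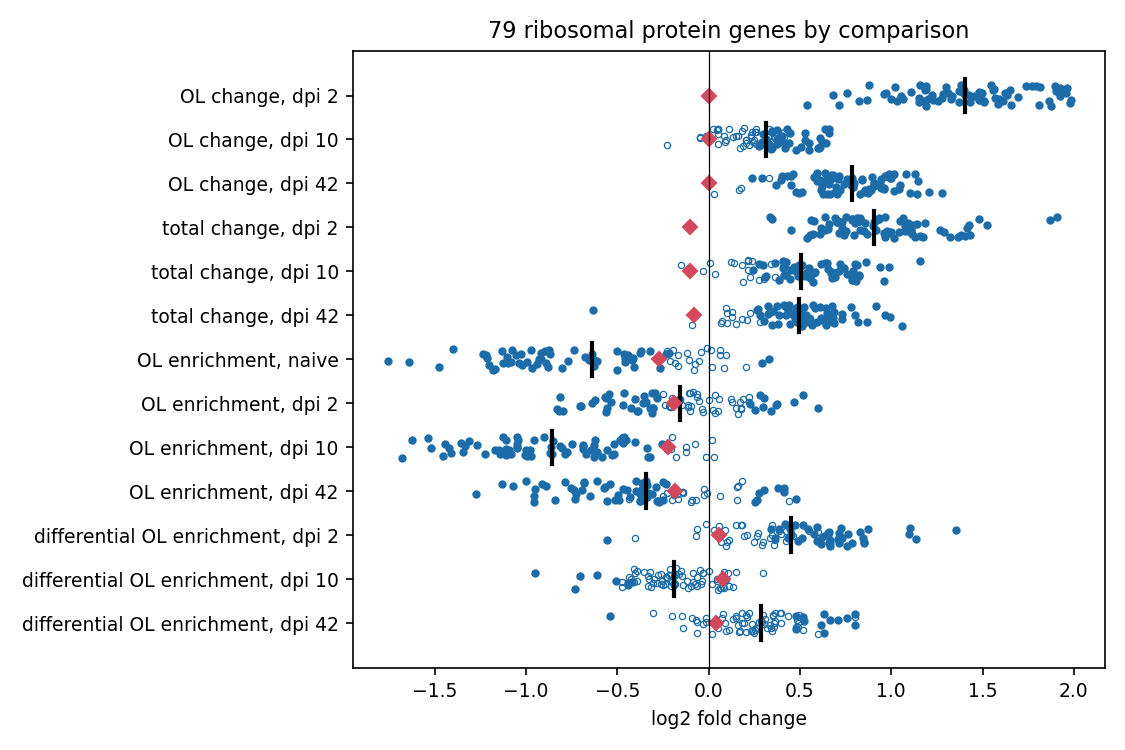
Log2 fold change (x axis) of the 79 members with a mean of at least 100 counts per library in 13 comparisons (y axis). Filled points have q under 0.05, open points do not, black lines mark the median over the 81 tested members and red diamonds the median over all 17167 genes. In OL the points sit right of 0 on dpi 2 (median 1.40), near it on dpi 10 (0.31) and between on dpi 42 (0.79), and in OL enrichment most lie left of 0.

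Gene length moved with these results. The members are short, with a median exonic length (all annotated exons merged, GENCODE M21) of 1770 bases against 4124 over all genes with a length, and only 13.2% of genes are shorter than that median. Among genes with a mean log2 CPM over 0, the shortest of 10 equal length classes (231 to 1870 bases) held 42 members and 1363 other genes. For those other genes the OL change had medians of 0.68 (dpi 2), 0.28 (dpi 10) and 0.66 (dpi 42), and for the 42 members 1.41, 0.33 and 0.81. Short genes as a whole thus stood higher in OL after SCI. The members of this class lay well above them on dpi 2 and close to them on dpi 10 and dpi 42. The next 4 classes held 14, 12, 4 and 4 members, which lay above the other genes of their class on each day. On dpi 10 the medians of these members were 0.32, 0.23, 0.43 and 0.32 against 0.14, 0.08, 0.02 and -0.04 for the other genes. On dpi 42 they were 0.67, 0.74, 0.79 and 0.77 against 0.32, 0.23, 0.10 and -0.02.

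A fit with an offset for length and GC content in each library gave smaller changes, with the median upward on dpi 2 and dpi 42 and downward on dpi 10. In this fit the median over the members was 0.69 on dpi 2, with 68 higher and 1 lower. It was -0.14 on dpi 10, with 3 higher and 22 lower, and 0.04 on dpi 42, with 25 higher and 16 lower. The medians over all genes in that fit were -0.04, -0.15 and -0.09, so that on dpi 10 the members lay at the median of all genes. The share of all genes called was not counted in this or the other alternative fits. Their counts of members, here and below, thus have no such share to be read against. The rise on dpi 2 was thus called with and without the offset, and most calls on dpi 10 and dpi 42 were not made with it. The part of length in the result was not tested further. On dpi 10 the number called also changed when single libraries were left out, to 22 without naive OL replicate 2 and to 19 without dpi 10 OL replicate 3.

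**Figure D3:**
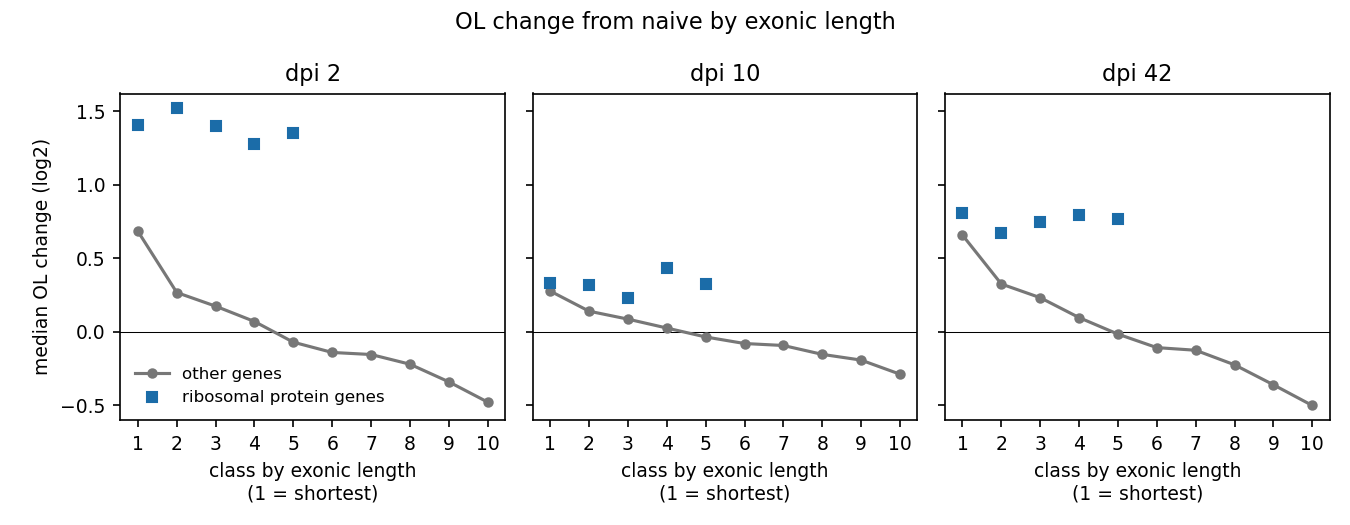
Median log2 OL change from naive (y axis) against 10 classes of exonic length with equal gene numbers (x axis, 1 is the shortest) for genes other than the members (grey line) and for the members (blue squares, classes with at least 4 members) on dpi 2, 10 and 42. The grey line falls from 0.68 to -0.48 on dpi 2, and the members lie above it in each class shown on all 3 days. On dpi 10 and dpi 42 the squares of the shortest class (0.33 and 0.81) lie close to the line (0.28 and 0.66) and those of class 5 (0.32 and 0.77) further above it (-0.04 and -0.02).

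Among the members themselves, length went with the change only weakly. Over the 79 members with at least 100 counts per library, the Spearman correlation of length with the OL change was -0.12 on dpi 2 and -0.21 on dpi 42. On dpi 2 the correlation with GC content was 0.15 and with the mean level -0.27. The run of C and T at the start had a correlation of 0.10 with the OL change on dpi 2 over the 59 members with a window. On dpi 2 the median for OL was 1.49 over the 29 members with a run of at least 8 bases, 1.39 over the 30 with shorter runs, and 1.34 over the 20 without a window. These are descriptions across genes of the same libraries.

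Total RNA answered the same question for the whole cord. The members summed to 9895 ± 233 CPM in naive tissue (SD, n = 3), 19086 ± 2760 CPM on dpi 2, 13973 ± 238 CPM on dpi 10 and 13798 ± 227 CPM on dpi 42. On dpi 2 pool 2, the pool with Y-linked counts, stood at 22267 CPM beside 17312 and 17681 CPM. All 9 libraries of injured tissue lay above all 3 naive ones.

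In total RNA 79 of 81 members were higher on dpi 2 (16.4% of all genes were) and 0 lower (20.8% of all genes were), with a median of 0.91. On dpi 10, 62 were higher (13.9% of all genes were) and 0 lower (18.2% of all genes were), with a median of 0.51. On dpi 42, 64 were higher (10.4% of all genes were) and 1 was lower (12.1% of all genes were), with a median of 0.49. In OL the medians were 1.40, 0.31 and 0.79.

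In the offset fit, total RNA had medians of 0.48, 0.15 and 0.11, with 59, 29 and 21 members higher and 0, 4 and 6 lower. The medians over all genes in that fit were -0.14, -0.17 and -0.15, below those of the members on each day. In the shortest length class, total RNA medians were 0.93, 0.54 and 0.53 for the members and 0.21, 0.03 and 0.12 for other genes. Other cell types moved too: the summed level of 10 microglia and macrophage markers went from 196 to 229 CPM in naive total RNA to 1384 to 1640 CPM on dpi 2 and 3728 to 5035 CPM on dpi 10, that of 6 proliferation markers from 2.85 to 3.51 CPM to 170.5 to 193 CPM on dpi 2, and that of 10 neuron markers went from 9948 to 10650 CPM to 3964 to 5303 CPM on dpi 2. All 10 microglia and macrophage markers were higher on each day. In OL libraries the same microglia and macrophage list summed to 10.9 to 17.7 CPM in naive and 76.9 to 102 CPM on dpi 2. Their part in the change of the members was not tested.

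In total RNA on dpi 2 other members led than in OL. Rps2, at the mRNA entry, had 126, 125 and 128 CPM in naive and 425, 550 and 452 CPM in dpi 2 total RNA (log2 1.91, SE 0.10, q = 1.34e-11). Rplp0, the base of the stalk that recruits elongation factors, had 178, 173 and 172 CPM in naive and 571, 737 and 607 CPM on dpi 2 (log2 1.87, SE 0.10, q = 2.43e-11). No dpi 2 library came near a naive one. On dpi 10 and dpi 42 Rplp0 was still at log2 1.16 (q = 2.23e-08) and 0.99 (q = 3.31e-07). Rps27l, a p53-responsive paralog of Rps27, rose by 1.52 on dpi 2 (SE 0.23, q = 2.29e-05). Rps15a and Rpl3 were at the low end on dpi 2, at 0.35 (q = 0.0108) and 0.34 (q = 0.000764). Without dpi 2 total RNA replicate 2 Rps15a was at 0.25 and without naive total RNA replicate 1 at 0.28, and it was not called in either.

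OL enrichment, OL against total RNA of the same group, asked where these mRNAs were held. In naive tissue 58 members were lower in OL (30.5% of all genes were) and 2 higher (24.9% of all genes were), with a median of -0.64 where that over all genes was -0.27. On dpi 2 the median was -0.16, close to -0.19 over all genes, with 30 members lower (28.8% of all genes were) and 11 higher (24.8% of all genes were). On dpi 10 the median was -0.86, with 70 lower (28.8% of all genes were) and 0 higher (25.2% of all genes were). On dpi 42 it was -0.34, with 49 lower (28.9% of all genes were) and 8 higher (24.9% of all genes were). The members thus lay furthest below total RNA on dpi 10 and near the median of all genes on dpi 2. Without dpi 2 total RNA replicate 2 the dpi 2 counts were 17 lower and 17 higher.

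These levels depend on how OL and total RNA libraries are put on a common scale. Scaling by library sizes alone gave medians of -1.15, -0.72, -1.44 and -0.84 in naive, dpi 2, dpi 10 and dpi 42 tissue, where all genes had -0.78, -0.76, -0.80 and -0.69, and it called 0 members higher in each group. The offset fit gave -0.10, 0.15, -0.48 and -0.13, where all genes had 0.05, 0.11, 0.07 and 0.10, and called 32, 8, 52 and 28 members lower and 23, 29, 5 and 15 higher.

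Rps15a stood lowest in naive tissue. It had 104, 113 and 126 CPM in total RNA and 36.3, 33.9 and 31.3 CPM in OL (log2 -1.76, SE 0.11, q = 9.64e-12), with every OL library far below every total RNA library. Rps19 (-1.64, q = 4.39e-09) and Rpl32 (-1.48, q = 2.04e-08) came next. The members higher in naive OL were Rpl18, with 70.0, 65.2 and 59.5 CPM against 51.2, 48.1 and 55.4 CPM (0.33, SE 0.11, q = 0.0115), and Rpl7 (0.29, SE 0.08, q = 0.00439), both at a negative value when scaled by library sizes alone (-0.18 and -0.22). Rpl18 was not called without naive total RNA replicate 2 (0.28). Rpl18 was higher in OL on dpi 2 (0.51, q = 0.000315) and dpi 42 (0.48, q = 0.000621) too, which library sizes alone turned to -0.05 and -0.02, and on dpi 10 its difference was -0.08 (q = 0.57). There were 27 members lower in OL in all 4 groups, Rpl32, Rps15a, Rps19, Rps20 and Rps28 among them (18% of all genes were).

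**Figure D4:**
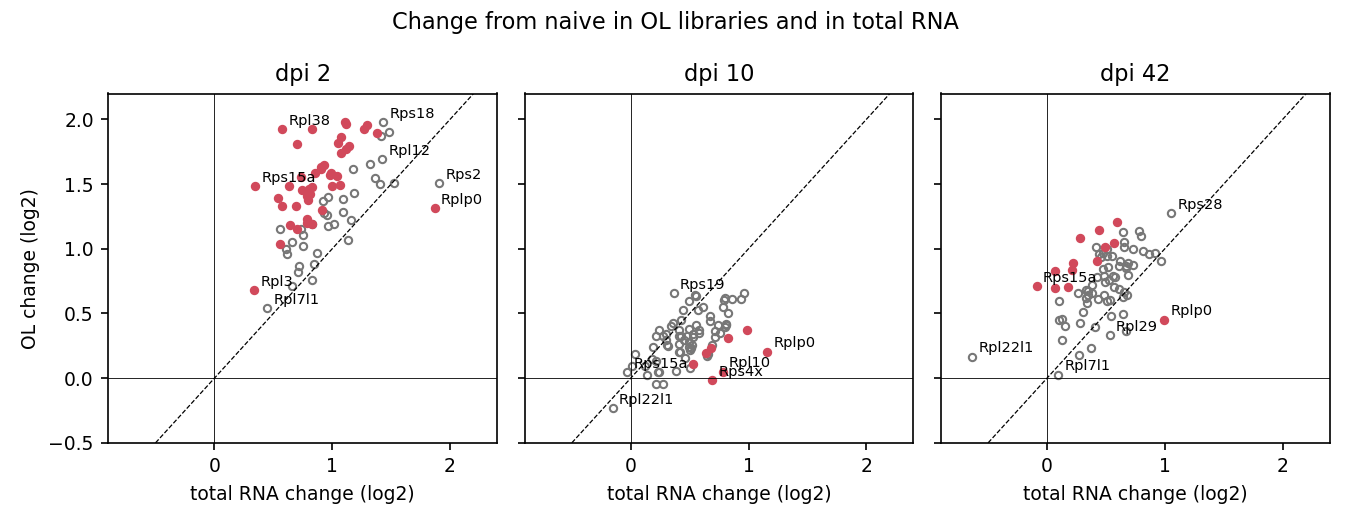
Log2 change from naive in total RNA (x axis) and in OL (y axis) of the 79 members with at least 100 counts per library on dpi 2, 10 and 42. The dashed line marks equal change, and red points have a differential OL enrichment with q under 0.05. On dpi 2 most points lie above the line (median difference 0.45), on dpi 10 most lie below it (-0.19), and Rplp0 lies below it on each day.

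Differential OL enrichment, the OL change minus the total RNA change, was used in the study to set aside mRNAs that changed in parallel in OL and in total RNA, which itself holds the RNA of the OL. On dpi 2 it was positive in 75 of 81 members with a median of 0.45. The test called 42 higher (8.06% of all genes were) and 1 lower (6.03% of all genes were). On dpi 10 the median was -0.19, with 0 higher (4.57% of all genes were) and 8 lower (3.09% of all genes were). On dpi 42 it was 0.28, with 12 higher (4.37% of all genes were) and 1 lower (3.47% of all genes were). The study's filter asked for a difference of more than 1 on the log2 scale at q under 0.05. It also kept mRNAs with an OL enrichment of more than 1 on the log2 scale, at q under 0.05, both before and after SCI. The highest OL enrichment of a member in any group was 0.60, on dpi 2. The counts here have no fold cut, and 4, 0 and 0 members were called with an absolute difference over 1 on dpi 2, 10 and 42. For that cut too, the share of all genes was not counted. The comparisons share the naive libraries.

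The number of members called here rested on the scaling. TMM compares each library with a reference library, and with a naive total RNA library as that reference the medians over the members were 0.20, -0.44 and 0.05, where those over all genes were -0.17, -0.15 and -0.18, beside 0.06, 0.08 and 0.04 over all genes without that reference. Both sets of medians thus moved down together, and the calls were 15 members higher on dpi 2, 29 lower on dpi 10 and 1 higher on dpi 42. The offset fit gave medians of 0.28, -0.31 and -0.04 over the members and 0.01, 0.00 and -0.01 over all genes, with 18 higher on dpi 2, 11 lower on dpi 10 and 1 higher on dpi 42. Leaving out 1 library at a time gave 11 to 54 higher on dpi 2 (11 without naive OL replicate 2 or dpi 2 OL replicate 2), 4 to 18 lower on dpi 10 (4 without naive total RNA replicate 2 or dpi 10 total RNA replicate 2), and 1 to 18 higher on dpi 42 (1 without naive OL replicate 2 or dpi 42 OL replicate 2). A fit without 1 library can also take another TMM reference, so these ranges need not come from the left-out library alone.

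The members with the highest values on dpi 2 were Rpl38, Rps15a and Rps21, all with a larger change in OL than in total RNA. Rpl38 had 34.8, 29.9 and 31.5 CPM in naive OL and 106, 133 and 127 CPM on dpi 2, while total RNA had 71.5, 67.8 and 71.7 CPM and then 90.7, 121 and 102 CPM. The groups do not overlap in either kind of library and lie further apart in OL (differential 1.35, SE 0.18, q = 3.45e-05). Rps15a had a differential of 1.14 (SE 0.15, q = 2.82e-05) on dpi 2 and 0.80 (SE 0.15, q = 0.00183) on dpi 42. Rps21 had 1.10 (q = 0.000647) on dpi 2. On dpi 42 Rpl41 stood beside Rps15a, at 0.80 (SE 0.18, q = 0.01), but was not called with the total RNA reference (0.56), in the offset fit (0.33) or without any of naive OL replicates 1 and 2 and dpi 42 OL replicates 1 and 2 (0.59 to 0.66).

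Rplp0 was called lower on each day and was the lowest on all 3 days among members with at least 100 counts per library (-0.56, q = 0.00872, then -0.95, q = 0.000164, and -0.54, q = 0.0189). Rps2 lay at the threshold on dpi 2 (-0.40, SE 0.135, q = 0.0507). It was called lower there in 15 of the 24 fits that left out 1 library (-0.643 to -0.286 over the 24), in the offset fit (-0.59) and with the total RNA reference (-0.65). On dpi 42 Rplp0 was not called without the libraries of conflicting labels (-0.49) or without total RNA replicate 1 alone (-0.52). In naive tissue its level was 198, 182 and 179 CPM in OL and 178, 173 and 172 CPM in total RNA. On dpi 10 it was 223, 231 and 190 CPM in OL and 388, 412 and 369 CPM in total RNA, so that OL and total RNA lay side by side before injury and apart after it. Of its stalk partners, Rplp1 had a differential of 0.66 (SE 0.19, q = 0.0265) on dpi 2 and Rplp2 0.51 (SE 0.16, q = 0.0315), and their OL change on dpi 2 was 1.92 and 1.89 against 1.31 for Rplp0.

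Rpl7, Rpl7a, Rpl10, Rps2 and Rps4x were also among the 8 members called lower on dpi 10. Rpl10, which joins the large subunit late, had 117, 108 and 105 CPM in naive and 108, 106 and 129 CPM in dpi 10 OL libraries, and in total RNA 145, 132 and 136 CPM and then 249, 229 and 231 CPM. The OL groups overlap and those of total RNA do not (differential -0.73, SE 0.14, q = 0.00196). Rps4x, the X-linked copy of a small subunit protein, was alike, at -0.70 (SE 0.13, q = 0.0021), with an OL change on dpi 10 of -0.01 (q = 1.00) and a total RNA change of 0.69 (q = 9.72e-06). Reads of these genes can be shared with processed copies. For 48 of the 82 members, at least 1 other annotated gene matched at 95% identity over 50% of the member's longest protein-coding transcript. There were 38 such copies for Rpl7a, 27 for Rps2, 9 for Rpl10 and 7 for Rps4x. Copies of a short isoform can be missed where the longest transcript is long, such as the 5179 bases of Rps15a. The counts do not show how shared reads were placed.

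**Figure D5:**
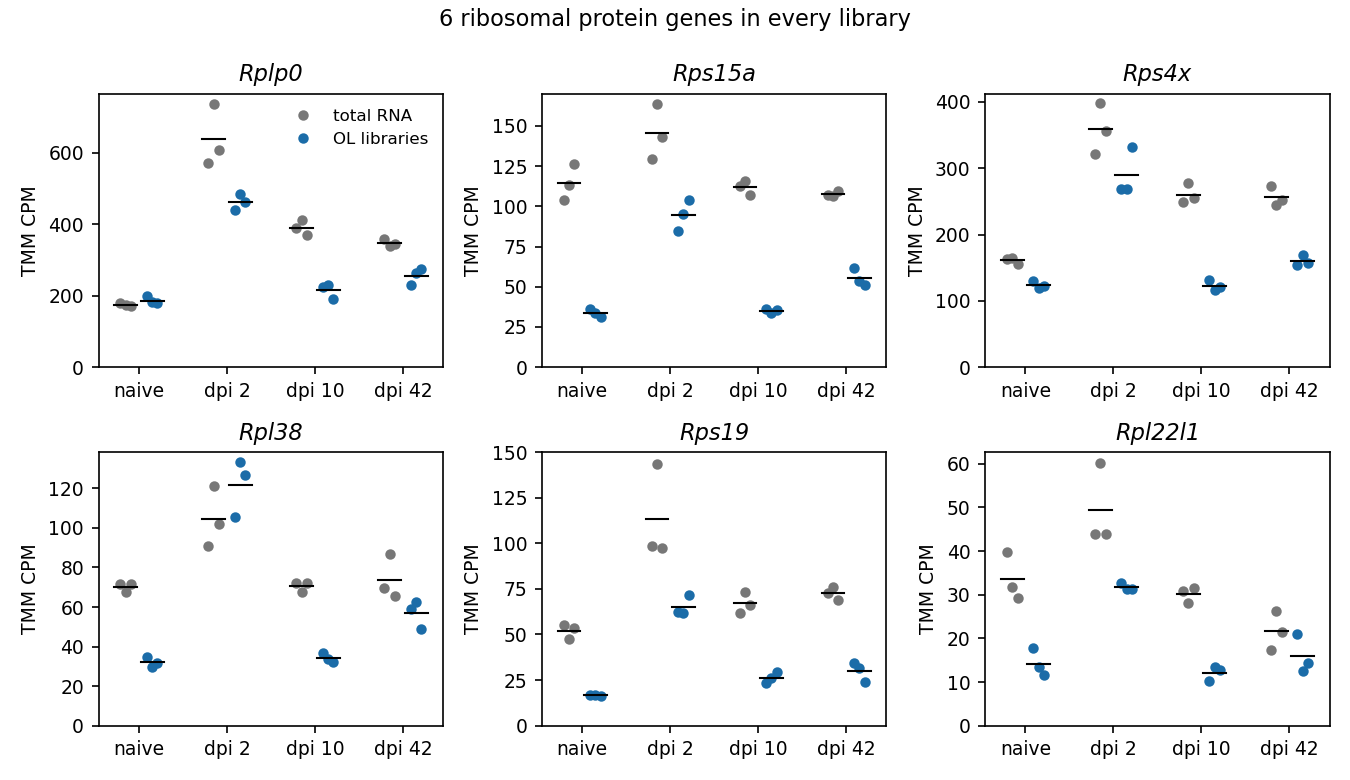
TMM-scaled CPM (y axis) of 6 members in the 4 groups, with 1 point per library, for total RNA (grey) and OL (blue), and black lines at the mean of 3. Rplp0 is lower in OL than in total RNA on dpi 2, 10 and 42, Rps4x in each group and most on dpi 10, Rps15a and Rps19 are lower in OL in each group, Rpl38 rises in OL on dpi 2, and Rpl22l1 is lower in total RNA on dpi 42 than in naive tissue.

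Other members are given by their role. Rpl5 and Rpl11, which form the 5S particle that binds the p53 regulator Mdm2, had an OL change on dpi 2 of 1.16 (q = 3.34e-08) and 1.37 (q = 1.28e-08). Rps6, the target of S6 kinase, had 152, 144 and 135 CPM in naive OL, 292, 311 and 278 CPM on dpi 2, and 145, 141 and 159 CPM on dpi 10. Its dpi 10 libraries overlap the naive ones and its dpi 2 libraries lie far above them (dpi 2 change 1.03, SE 0.09, q = 1.92e-08). Rpsa, also known as the laminin receptor, changed by 1.5 in OL (q = 6.99e-10) and by 1.40 in total RNA (q = 2.14e-09) on dpi 2, with a differential of 0.09 (SE 0.14, q = 0.77).

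Among the late joining proteins, Rps26 had an OL change of 1.65 on dpi 2 (q = 2.59e-09), Rps10 of 1.58 (q = 2.85e-10), Rpl10 of 1.18 (q = 8.76e-09) and Rpl24 of 1.00 (q = 2.02e-07). The 4 X-linked members, Rpl10, Rpl36a, Rpl39 and Rps4x, rose by 1.18, 1.81, 1.88 and 1.22. Rps27a, made as a fusion with ubiquitin, rose by 1.18 (q = 2.24e-07). Its OL level on dpi 42 was 262, 249 and 206 CPM against 179, 180 and 181 CPM in total RNA, and its OL enrichment there was 0.41 (SE 0.12, q = 0.00775).

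Paralogs of members were named too. Rpl22l1, the paralog of the tagged Rpl22, was at 39.7, 31.7 and 29.3 CPM in naive and at 17.3, 26.2 and 21.4 CPM in dpi 42 total RNA, with no overlap (log2 -0.63, SE 0.20, q = 0.0263). It was the only member called lower in total RNA on dpi 42, where Rpl22 was higher (0.34, SE 0.10, q = 0.0136). The call was not made with the total RNA reference (-0.52), with library sizes alone (-0.51), or in 14 of the 24 fits that left out 1 library (-0.795 to -0.495 over the 24). These left out naive total RNA replicate 1, dpi 42 total RNA replicate 1 or 3, or any OL library but dpi 42 OL replicate 1. In OL, Rpl22l1 had 17.8, 13.4 and 11.5 CPM in naive libraries and 32.6, 31.2 and 31.2 CPM on dpi 2 (1.15, SE 0.20, q = 0.000114), and on dpi 10 and dpi 42 its groups overlapped those of naive (-0.23, q = 0.50, and 0.17, q = 0.59). Rps27l rose by 1.51 in OL on dpi 2 (q = 2.45e-05) beside 0.87 for Rps27 (q = 3.4e-06), and Rpl7l1 by 0.54 beside 0.76 for Rpl7 (q = 3.39e-07). The difference between paralogs was not tested. Rpl3l, a muscle paralog of Rpl3, had at most 35 counts in a library and Rpl39l at most 27.

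Levels per kb of merged exons give the order of the members in naive OL. Rpl4 led at 238 CPM per kb, followed by Rpl8 at 202, Rps15 at 197, Rpl19 at 189 and Rplp1 at 178. Of the 79 members with at least 100 counts per library, Rpl22l1 (7.16), Rpl39 (5.85), Rps15a (5.40) and Rps19 (3.56) closed the list. The merged length counts exons of all annotated isoforms, 6270 bases for Rps15a and 4685 for Rps19, so that levels per kb depend on the annotation. In naive total RNA Rps15a had 18.3 and Rps19 11.1 CPM per kb.

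Some ribosomal protein genes have symbols outside the rule. Fau, whose product is split into a ubiquitin-like protein and a small subunit protein, had 101, 102 and 102 CPM in naive and 233, 248 and 228 CPM in dpi 2 OL libraries (1.22, SE 0.10, q = 3.5e-09). Rpl36al, a paralog of Rpl36a, rose by 1.56 (q = 1.98e-08). Rps27rt, a retrocopy of Rps27, had at most 4 counts in a library.

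Mitochondrial ribosomal proteins, which build the separate ribosome of the mitochondrion, were set beside the members (78 genes, all tested). Among all genes, 18.4% were higher and 20% lower in OL at dpi 2. These shares were 9.62% and 8.59% for dpi 10, then 16.2% and 16.9% for dpi 42. The OL counts of this list and of the lists that follow are to be read against them. Whether a list differs from all genes was not tested. In OL on dpi 2, 57 were higher and 2 lower with a median of 0.66, on dpi 10 3 were higher and 0 lower (0.13), and on dpi 42 47 were higher and 0 lower (0.48). In total RNA their medians were 0.05, -0.26 and -0.09. On dpi 2, 10 were higher there (16.4% of all genes were) and 4 lower (20.8% of all genes were). The cytosolic members had medians of 0.91, 0.51 and 0.49 in total RNA. Differential OL enrichment of the mitochondrial family had medians of 0.51, 0.38 and 0.59, where that of the cytosolic members was 0.45, -0.19 and 0.28.

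Other mRNAs known to carry a TOP motif rose in part. Of 15, 12 were higher and 1 lower in OL on dpi 2 (median 0.59), 0 higher and 1 lower on dpi 10, and 7 higher and 1 lower on dpi 42. Eef1g, a subunit of the elongation factor that recharges Eef1a1, rose by 1.42 on dpi 2 and Rack1, a scaffold on the small subunit, by 1.23, while Eef2, the translocation factor, fell by 0.33. Pabpc1, the poly(A) binding protein, rose by 1.86 in total RNA on dpi 2 and by 0.40 in OL, with a differential of -1.45.

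Regulators of TOP mRNAs formed another list. Of 13 genes, 2 were higher and 5 lower in OL on dpi 2. Mtor had a log2 change of -1.34 in OL and -1.37 in total RNA on dpi 2 and -1.09 in OL on dpi 42. Eif4ebp1, the translation repressor that mTOR inactivates, rose by 3.85 in OL and 3.84 in total RNA on dpi 2. Larp1 had -0.25 in OL on dpi 2. These are mRNA levels, not kinase activity.

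Ribosome assembly factors were called in both directions. Of 23 genes, 7 were higher and 3 lower in OL on dpi 2 (median 0.08), 0 higher and 2 lower on dpi 10, and 5 higher and 4 lower on dpi 42. Fbl, which methylates ribosomal RNA, rose by 1.09 on dpi 2, and Polr1a, the large subunit of RNA polymerase I, fell by 0.95. Among 7 transcription factors tied to ribosomal protein genes, 1 was higher and 3 lower in OL on dpi 2. Myc was at 2.26 in OL and 2.48 in total RNA on dpi 2, and Yy1 and Sp1 at -0.70 and -0.51 in OL.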

How the data were processed

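Total spinal cord RNA and OL ribosome-bound RNA were sequenced as polyA libraries, 3 per group. Per the labels and the study's methods the authors checked reads with FastQC (0.10.1), aligned them to the mouse genome (mm10, GRCm38.p6) with STAR and deposited counts of reads per gene from HTSeq (0.10.0), 1 column per library and not normalized. How reads of near-identical copies were placed is not given in the sources used here. The 17167 genes whose counts summed to 10 or more were fitted with the quasi-likelihood test of edgeR (4.0.16, R 4.3.3) after TMM scaling, with 1 mean for each of the 8 groups of 24 libraries, and adjusted over all of them. SE is the absolute log2 fold change divided by the root of F. Depth was 25840127 to 32987841 counts per library, and each pool is 1 replicate.

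The ribosomal protein genes and all lists were chosen with earlier results of these data known. Named genes were Rpl22, the 3 highest and 3 lowest members of each comparison with a mean of at least 100 counts, members called against the median, paralogs and members of listed roles. Alternatives were DESeq2 (1.42.0), other scalings and filters, an offset for length and GC content per library (smooth terms, mgcv 1.9.3, 17154 genes), blocks, and leaving out each library. TMM with a total RNA library as reference was chosen after seeing the data. OL and total RNA of 1 pool come from the same tissue. Deviations from the group means correlated between them at 0.142 to 0.227 in naive and 0.204 to 0.207 in dpi 2, at 0.0543 to 0.148 in dpi 10 and at -0.0517 to 0.0218 in dpi 42 tissue, where labels conflict. The edgeR fit was run on simulated counts with changes put into some genes of the dpi 2 OL libraries. These counts held no trend with gene length and no shift in scaling between days, so the run does not bear on either. Some genes are not reported here.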

Additional observations from a re-analysis of the deposited data

Results flagged for a closer look

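The members that changed differently in OL and in total RNA, by the interaction term of the edgeR fit, were singled out. On dpi 2 there were 42 higher (8.06% of all genes were) and 1 lower (6.03% of all genes were). On dpi 10 there were 8 lower (3.09% of all genes were). On dpi 42 there were 12 higher (4.37% of all genes were) and 1 lower (3.47% of all genes were). These counts rested on the scaling, as given above. Fits that left out 1 library gave 11 to 54 higher on dpi 2 and 4 to 18 lower on dpi 10. On dpi 42 they gave 1 to 18 higher. Rplp0 had log2 differences of -0.56, -0.95 and -0.54 on dpi 2, 10 and 42. On dpi 2 Rpl38 had 1.35, Rps15a 1.14 and Rps21 1.10. On dpi 10 Rpl10 had -0.73 and Rps4x -0.70. On dpi 42 Rps15a and Rpl41 both had 0.80. Rpl41 was not called in 4 fits that left out 1 library, with the total RNA reference or in the offset fit.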

How the results depend on the processing

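Depth limits Rpl3l, Rpl39l and Rpl10l. With the tissue pool as replicate block (OL enrichment and its differential) 10 members were lower on dpi 10 and 16 higher on dpi 42 in differential OL enrichment, and with the replicate number as block (dpi 2 and dpi 10 changes) 35 were higher in OL on dpi 10. Rpl22l1 was called in the dpi 42 differential with the pool block (0.797) and not without it (0.80), and no other call of a named member changed under either block. The rises on dpi 2 and the fall to dpi 10 in OL held 79 calls in each fit that left out 1 library. Unless given here, the cause of a change was not tested.

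With DESeq2 size factors 4 members were higher in OL enrichment on dpi 42. With library sizes alone 0 were higher in OL enrichment of naive, dpi 2 and dpi 42 tissue and 72 lower on dpi 2, 59 were higher in OL on dpi 10, 0 lower in total RNA on dpi 42, and 2 lower in the dpi 2 differential. In that setting OL enrichment turned for Rpl18 (-0.184 in naive, -0.054 on dpi 2, -0.0217 on dpi 42), Rpl7 (-0.22 in naive), Rps27a (-0.108 on dpi 2, -0.546 on dpi 10) and Rps3 (-0.56 on dpi 10, -0.0901 on dpi 42). TMM without the members, DESeq2's test and the filter of edgeR each gave 2 lower in the dpi 2 differential.

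With the length and GC offset, members higher and lower in OL enrichment were 23 and 32 in naive, 29 and 8 on dpi 2 (median 0.146), 5 higher on dpi 10 (Rps23 0.388), and 15 and 28 on dpi 42. The OL change had 1 lower on dpi 2, 3 higher and 22 lower on dpi 10 (median -0.138), and 25 higher and 16 lower on dpi 42 (Rpl4 -0.394, Rps21 -0.0282). Total RNA had 29 higher and 4 lower on dpi 10 (Rpl38 -0.703) and 21 higher and 6 lower on dpi 42 (Rpl13a -0.324). The differential had 18 higher and 2 lower on dpi 2, and 1 higher and 3 lower on dpi 42 (median -0.0371), and OL had 11 higher on dpi 42 than on dpi 10.

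With a total RNA library as TMM reference, chosen after seeing the data, 4 members were higher in OL enrichment on dpi 2 and 2 on dpi 42, 22 in OL on dpi 10, and 0 lower in total RNA on dpi 42. The differential had 15 higher and 2 lower on dpi 2, 29 lower on dpi 10, and 1 higher and 2 lower on dpi 42. With only the groups compared in the fit, OL enrichment had 3 higher and 17 lower on dpi 2 and 4 higher on dpi 42, the differential 23 higher on dpi 2 and 17 lower on dpi 10, and OL 9 higher on dpi 42 than on dpi 10. Without both libraries of conflicting labels, 4 were higher in OL enrichment on dpi 42, and the differential had 2 lower on dpi 2 and 7 higher and 0 lower on dpi 42. Without dpi 2 pool 2, 16 were lower in OL enrichment on dpi 2 and 19 higher in the dpi 42 differential.

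Leaving out 1 library at a time gave 1 to 6 higher in OL enrichment of naive tissue, 5 to 17 higher and 17 to 34 lower on dpi 2, 19 to 46 higher in OL on dpi 10, 0 to 1 lower in total RNA on dpi 2 and on dpi 42, 11 to 54 higher and 1 to 3 lower in the dpi 2 differential, 4 to 18 lower in that of dpi 10, 1 to 18 higher and 0 to 2 lower in that of dpi 42, and 23 to 62 higher in OL on dpi 42 than on dpi 10. Leaving out any OL library of another group gave the same naive OL enrichment median (-0.478 against -0.637). Those fits kept all naive libraries. TMM picks its reference from the libraries present, and whether it picked another one in these fits was not checked.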
